A study of Homo sapiens with 11 samples.

Results

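Ribosome biogenesis is described here through 46 genes for RNA polymerase I, its initiation factors and the nucleolar factors that process ribosomal RNA (rRNA) and assemble the ribosomal subunits. The genes were chosen by name, with earlier results of these data known. The shares of members called are therefore descriptions and not an independent test of the list. All 46 were present among the 23228 gene symbols of the count tables and all passed the filter on low counts that left 15888 genes for testing.

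The RNA-seq libraries came from 2 human cell lines, MDA-MB231, labelled as a basal breast cancer line, and U2OS, an osteosarcoma line. Cells received 8 h of doxorubicin at 1 µM, etoposide at 20 µM, paclitaxel at 0.2 µM or methyl methanesulfonate (MMS) at 40 µg/mL, or the vehicle DMSO. The first 3 doses were chosen as inhibitory doses of a longer exposure, per the labels. Topoisomerase II is poisoned by both doxorubicin, a DNA intercalator, and etoposide, which does not intercalate. MMS is an alkylating agent that methylates bases, and paclitaxel acts on microtubules. There were 11 libraries: 1 for every drug in either line, 1 with DMSO in U2OS and 2 with DMSO in MDA-MB231. MDA-MB231 DMSO replicate 1 shares its title form with the doxorubicin, etoposide and paclitaxel libraries of that line, and replicate 2 shares it with the MMS library. The description of replicate 2 says no treatment while its treatment label says DMSO, and a duration is given in a DMSO title for that library alone. All 4 drugs were set against the same DMSO library in U2OS, and 3 of them against the same one in MDA-MB231, so their responses are not independent of each other.

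Gene counts summed to between 16774156 and 31588683 per library. In DMSO the 8 osteoblast markers summed to 82.8 CPM in U2OS and to 47.6 and 42.1 CPM in MDA-MB231. Within that list RUNX2, an osteoblast transcription factor, stood at 23.3 CPM in U2OS and at 34.3 and 31.9 CPM in MDA-MB231. With DMSO 4 of the 8 had 0 reads in U2OS, SP7 and BGLAP among them, and 3 of the 8 had 0 reads in either MDA-MB231 library. The 10 markers of basal breast lines summed to 4568 and 4365 CPM in MDA-MB231 and to 4061 CPM in U2OS. MDA-MB231 had 0 reads of KRT5, a basal keratin, in both DMSO libraries, while CD44, a surface marker of basal lines, stood at 1297 and 1044 CPM. The 12 blood and immune markers summed to between 1.23 and 28.7 CPM, the highest sum being that of MDA-MB231 with paclitaxel. PTPRC, the pan-leukocyte marker, stayed between 0.129 and 0.561 CPM. Of the 6 blood and immune markers that passed the filter, 2 rose with doxorubicin (21.9% of all tested genes) and 1 with etoposide (7.97%), and 0 fell with either.

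In the nucleolus, RNA polymerase I transcribes a long precursor rRNA, which initiation factors start by recruiting the polymerase to the ribosomal DNA promoter. Small nucleolar ribonucleoproteins (snoRNPs) then modify the precursor, box C/D particles by methylating riboses and box H/ACA particles by converting uridines to pseudouridines. The small subunit processome folds and cleaves the part that becomes the 40S subunit, and a separate set of factors matures the 60S subunit. Cancer cells make many ribosomes, and the ribosomal DNA and the nucleolus are known as sites that respond early to DNA damage. The counts measure messenger RNA of these factors and not rRNA. RN5-8S1, the single rRNA row of the tables that could be matched, held 0 reads in all 11 libraries, which allows at most 0.095 to 0.179 CPM by counting error.

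The promoters of 3 members are shown because DDX21 was called for the most drugs (3 of 4), and because WDR43 and POLR1B had the highest mean absolute log2 fold change over the 4 drugs among members called for 2 drugs, other than RRS1, whose promoter is not shown. Capitals mark CACGTG, the E-box that MYC and related factors are known to bind, and the sequences run from 250 bases before to 50 bases after each RefSeq start on build GRCh38.p14, all on the plus strand.
DDX21, upstream start, chr10:68955920-68956219: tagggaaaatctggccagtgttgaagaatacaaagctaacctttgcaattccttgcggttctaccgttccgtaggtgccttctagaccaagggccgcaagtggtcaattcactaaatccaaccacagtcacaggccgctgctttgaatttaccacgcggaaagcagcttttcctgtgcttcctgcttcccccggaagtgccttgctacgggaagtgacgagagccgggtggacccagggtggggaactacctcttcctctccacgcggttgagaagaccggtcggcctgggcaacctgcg
DDX21, downstream start, chr10:68956397-68956696: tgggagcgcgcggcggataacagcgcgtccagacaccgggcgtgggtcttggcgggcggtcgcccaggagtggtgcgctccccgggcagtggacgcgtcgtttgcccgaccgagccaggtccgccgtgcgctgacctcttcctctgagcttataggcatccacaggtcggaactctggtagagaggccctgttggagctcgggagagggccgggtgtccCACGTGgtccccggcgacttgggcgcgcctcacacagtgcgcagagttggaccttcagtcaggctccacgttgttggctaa
WDR43, chr2:28894417-28894716: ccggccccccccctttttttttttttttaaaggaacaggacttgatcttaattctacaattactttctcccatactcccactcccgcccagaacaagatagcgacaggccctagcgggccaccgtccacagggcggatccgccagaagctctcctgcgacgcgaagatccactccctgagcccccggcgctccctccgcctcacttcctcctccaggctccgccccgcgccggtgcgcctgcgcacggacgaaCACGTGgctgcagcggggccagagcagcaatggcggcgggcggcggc
POLR1B, upstream start, chr2:112541786-112542085: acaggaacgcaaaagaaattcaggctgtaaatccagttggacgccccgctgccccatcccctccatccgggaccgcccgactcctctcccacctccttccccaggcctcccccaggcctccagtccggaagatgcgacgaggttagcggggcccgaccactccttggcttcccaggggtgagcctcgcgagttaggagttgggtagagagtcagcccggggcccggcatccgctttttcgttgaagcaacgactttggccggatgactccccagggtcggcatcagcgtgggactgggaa
RefSeq lists 2 starts for DDX21, and the E-box stood before the downstream start at position -31, with 0 matches at the upstream start. In WDR43 the E-box began at position 4 after the start. Neither POLR1B entry held it, and the upstream one is printed. The letters CACGTG, which read the same on both strands, were found for 15 of the 39 members with a promoter entry (38.5%). This compares with 12.2% of the tested genes with an entry and 8.77% of all genes with an entry. Counted by entry, 16 of 51 member entries held it (31.4%), against 8.91% for tested genes and 7.26% of all 35116 entries. These matches are descriptions of sequence. Of all tested genes, not split by motif, 20.6% were called lower with doxorubicin and 9.23% with etoposide, at the threshold given below. Among the 15 members with the motif, 9 fell with doxorubicin and 12 with etoposide, and among the 24 without it, 12 fell with doxorubicin and 9 with etoposide. Median log2 fold changes with and without it were -0.57 and -0.36 for doxorubicin and -0.86 and -0.56 for etoposide, and this difference was not tested.

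The tests fitted 1 response per drug, shared by the 2 lines, with a baseline for each line and title form. They used edgeR quasi-likelihood, Benjamini-Hochberg adjusted over 15888 genes, and called genes at an adjusted p under 0.05. Each baseline drew on all libraries of its line and title form and not on DMSO alone. A fitted value is therefore not the plain mean of the 2 ratios to DMSO. UBTF with doxorubicin had ratios of 0.13 in U2OS and 0.12 in MDA-MB231 but a fitted value of 0.21 log2 units. Changes are given as log2 values with their SE, from 2 libraries for each drug (n = 2). Levels are library-scaled counts (CPM) after TMM normalisation. Ratios within 1 line compare 2 libraries and have no replicate check. With 1 library per drug and line, the p-values and SE rest on how far the 2 lines differ in their responses. This spread is mixed with noise between libraries. Genes that respond differently in the 2 lines are thus harder to call. Separate cultures are not stated, so the noise between libraries may be technical. In these bulk samples, fewer cells with a transcript and less of it per cell cannot be told apart.

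Doxorubicin lowered 6 of the 10 members that belong to RNA polymerase I or its factors and 7 of the 9 in the small subunit processome, while a smaller set of nucleolar genes rose. Of the 46 members, 24 fell (52.2%, against 20.6% of all tested genes), 7 rose (15.2%, against 21.9%) and 15 were not called. The median member stood at -0.52 and the median tested gene at 0.07 log2 units. Among the genes that fell, the ribosome assembly factor RRS1 came down 5.99-fold, POLR1B 5.11-fold and UTP18 4.45-fold. Those that rose did so by less than 2-fold, up to 1.98-fold for TAF1C. Without MDA-MB231 DMSO replicate 1 the counts came to 5 higher and 13 lower.

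RNA polymerase I itself responded unevenly. POLR1B, which with POLR1A forms the catalytic core, had 106 CPM with DMSO, 15.2 after doxorubicin, 53.7 after etoposide, 93.9 after MMS and 99.2 after paclitaxel in U2OS. In MDA-MB231, POLR1B had 73.5 and 102 CPM with DMSO (replicates 1 and 2), 17.2 after doxorubicin, 37.1 after etoposide, 132 after MMS and 54.5 after paclitaxel. Both doxorubicin libraries lay below every other library, and both etoposide libraries below the rest. POLR1B fell by 2.35 ± 0.25 log2 units (adjusted p = 0.000363) with doxorubicin and by 0.91 ± 0.24 log2 units (adjusted p = 0.0322) with etoposide, and doxorubicin lowered it further than etoposide (-1.44 ± 0.25, adjusted p = 0.00187). POLR1A, the largest subunit, fell by 1.24 ± 0.15 log2 units (adjusted p = 0.000519) with doxorubicin, with 52.9 CPM against 124 in U2OS and 58.3 CPM against 151 in MDA-MB231. POLR1E, a peripheral subunit that helps initiation, fell by 1.02 ± 0.23 log2 units (adjusted p = 0.00805). The other 2 subunits, POLR1C and POLR1D, which RNA polymerase III also uses, were not called for any drug. With doxorubicin their log2 fold changes were -0.04 ± 0.18 and -0.15 ± 0.20, and in MDA-MB231 all 6 POLR1D values lay between 61.2 and 81.2 CPM.

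The initiation factors split in 2 directions. TAF1A and TAF1B are subunits of selectivity factor SL1, which recognises the ribosomal DNA promoter, and TAF1C is another. TAF1A had 10.6 CPM with DMSO, 3.13 after doxorubicin, 9.82 after etoposide, 25.6 after MMS and 12.2 after paclitaxel in U2OS. In MDA-MB231, TAF1A had 28.4 and 29.4 CPM with DMSO (replicates 1 and 2), 7.95 after doxorubicin, 15.3 after etoposide, 45.3 after MMS and 23.9 after paclitaxel. The doxorubicin library was the lowest of its line in each case and the MMS library the highest. TAF1A fell by 1.86 ± 0.27 log2 units (adjusted p = 0.00104) and TAF1B by 1.11 ± 0.18 log2 units (adjusted p = 0.00182) with doxorubicin. TAF1C rose by 0.99 ± 0.22 log2 units (adjusted p = 0.00688), with 146 CPM against 50.6 in U2OS and 62 CPM against 42.7 in MDA-MB231. RRN3, which links the polymerase to SL1 and is controlled by growth signals, fell by 0.72 ± 0.17 log2 units (adjusted p = 0.00941). UBTF, which binds along the ribosomal DNA and keeps it open, had a log2 fold change of 0.21 ± 0.17 and was not called.

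In the small subunit processome 7 of 9 members fell with doxorubicin and 0 rose. WDR43, part of the module that joins the nascent precursor first, had 215 CPM with DMSO, 50.9 after doxorubicin, 74.5 after etoposide, 307 after MMS and 225 after paclitaxel in U2OS. In MDA-MB231, WDR43 had 209 and 275 CPM with DMSO (replicates 1 and 2), 61.6 after doxorubicin, 65.9 after etoposide, 410 after MMS and 172 after paclitaxel. The doxorubicin and etoposide libraries of both lines lay below all the others. WDR43 fell by 1.90 ± 0.17 log2 units (adjusted p = 0.00021) with doxorubicin and 1.59 ± 0.17 log2 units (adjusted p = 0.00323) with etoposide. UTP18, a WD-repeat protein of the processome, fell by 2.15 ± 0.35 log2 units (adjusted p = 0.00162), with 11.3 CPM against 89.4 in U2OS and 34.8 CPM against 111 in MDA-MB231. The helicase gene DDX10 fell by 1.56 ± 0.18 log2 units (adjusted p = 0.000457). UTP15 (-1.08), NOP14 (-1.03), UTP20 (-0.63) and DDX47 (-0.58) fell as well. UTP3 and RRP9 were not called with doxorubicin, at 0.42 ± 0.18 and 0.25 ± 0.18.

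Of the 11 large subunit assembly genes, 6 fell with doxorubicin and 2 rose. RRS1, which brings the 5S rRNA particle into the 60S precursor, had 82.9 CPM with DMSO, 14.5 after doxorubicin, 25.5 after etoposide, 38.8 after MMS and 88 after paclitaxel in U2OS. In MDA-MB231, RRS1 had 50 and 65.9 CPM with DMSO (replicates 1 and 2), 6.78 after doxorubicin, 9.66 after etoposide, 52.5 after MMS and 36.2 after paclitaxel. It fell by 2.58 ± 0.28 log2 units (adjusted p = 0.000354), the lowest value among the 46 members, and the 2 doxorubicin libraries were the lowest of their lines. EBNA1BP2, a 60S assembly factor, had 310 CPM with DMSO, 477 after doxorubicin, 166 after etoposide, 222 after MMS and 296 after paclitaxel in U2OS. In MDA-MB231, EBNA1BP2 had 308 and 345 CPM with DMSO (replicates 1 and 2), 503 after doxorubicin, 162 after etoposide, 344 after MMS and 253 after paclitaxel. Its doxorubicin value was the highest and its etoposide value the lowest in each line, and it rose by 0.73 ± 0.15 log2 units (adjusted p = 0.00515) with doxorubicin. RRP1 (-1.36), NOP16 (-1.11), BRIX1 (-0.83), NOP2 (-0.56), an rRNA methyltransferase, and the helicase gene DDX18 (-0.48) also fell. WDR74, which works in 60S maturation, rose by 0.87 ± 0.19 log2 units (adjusted p = 0.00654). BOP1, PES1 and WDR12, the 3 members of the PeBoW complex of the 60S pathway, were not called with doxorubicin, at 0.02 ± 0.31, -0.12 ± 0.15 and 0.04 ± 0.16.

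The snoRNP proteins also divided. FBL, the ribose methyltransferase of box C/D particles, had 237 CPM with DMSO, 346 after doxorubicin, 134 after etoposide, 184 after MMS and 225 after paclitaxel in U2OS. In MDA-MB231, FBL had 290 and 304 CPM with DMSO (replicates 1 and 2), 379 after doxorubicin, 145 after etoposide, 295 after MMS and 244 after paclitaxel. It was highest with doxorubicin and lowest with etoposide in both lines. FBL rose by 0.52 ± 0.14 log2 units (adjusted p = 0.0157), and the box C/D core proteins NOP56 and NOP58 were not called (0.21 ± 0.15 and 0.33 ± 0.15). Of the 4 box H/ACA core proteins, NHP2 rose by 0.86 ± 0.14 log2 units (adjusted p = 0.00158) and NOP10 rose by 0.54 ± 0.15, while DKC1, the pseudouridine synthase, fell by 1.03 ± 0.20 log2 units (adjusted p = 0.00369) and GAR1 fell by 1.02 ± 0.18 on the log2 scale. Proteins of 1 particle thus had transcripts called in opposite directions.

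Among the chaperones and scaffolds of the nucleolus, NPM1 rose by 0.61 ± 0.18 log2 units (adjusted p = 0.023) and NCL, NPM3 and NOLC1 were not called with doxorubicin. NPM1, a histone and assembly chaperone, had 517 CPM with DMSO, 768 after doxorubicin, 252 after etoposide, 390 after MMS and 496 after paclitaxel in U2OS. In MDA-MB231, NPM1 had 546 and 639 CPM with DMSO (replicates 1 and 2), 797 after doxorubicin, 359 after etoposide, 631 after MMS and 420 after paclitaxel. Highest with doxorubicin in both lines, it was also lowest with etoposide in both. NCL, nucleolin, had the highest level per kb of exon of the 46 members in DMSO, at 226 CPM per kb on average with GENCODE exon lengths, against 5.57 CPM per kb for POLR1D, the lowest. Of the 5 remaining processing genes, GNL3 (nucleostemin, -1.48), MYBBP1A (-0.73) and DDX21 (-0.57) fell with doxorubicin and LYAR and RRP12 were not called.

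Some of the rises, those of 3 members, depended on scaling. With libraries scaled to their total gene counts, the median of all tested genes moved by -0.22 with doxorubicin and by 0.13 with etoposide, and 4 members were called higher and 25 lower with doxorubicin. NOP10, FBL and NPM1 were then not called, at 0.32, 0.30 and 0.39 log2 units, while TAF1C, NHP2, WDR74 and EBNA1BP2 remained called. NPM1 has many processed pseudogenes, and reads that aligned to several places, 37.5% and 34.4% of reads in the doxorubicin libraries against 32.7% and 30% in their DMSO libraries, are not counted for any gene. Their part in these values was not tested.

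**Figure D1:**
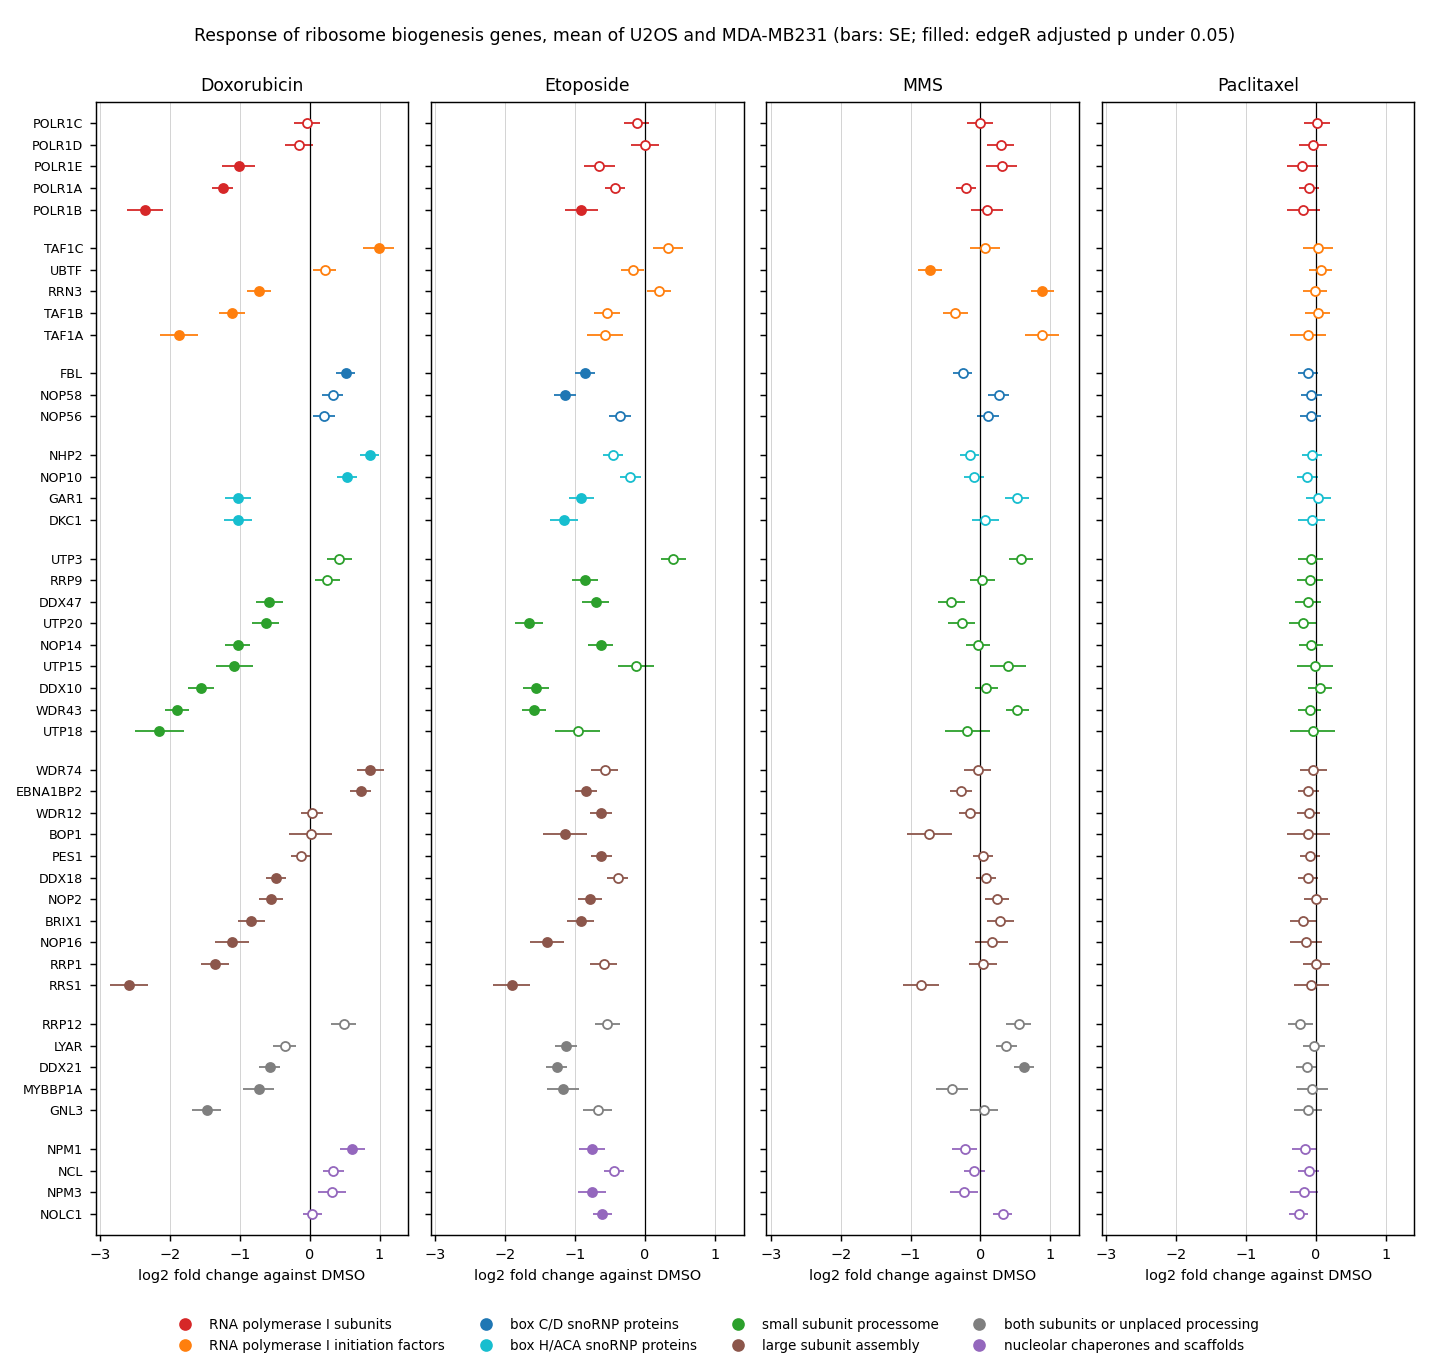
Fitted log2 fold change against DMSO (horizontal axes) for each of the 46 genes, grouped and coloured by role, in 1 panel per drug. Points are fitted values shared by U2OS and MDA-MB231, and bars are SE. Filled points passed the test, which 31 genes did for doxorubicin, 25 for etoposide, 3 for MMS and 0 for paclitaxel.

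Etoposide lowered members without raising any. Of the 46 members, 25 fell (54.3%, against 9.23% of all tested genes), 0 rose (against 7.97%) and 21 were not called. The median member stood at -0.66 and the median tested gene at 0.02 log2 units. At an unadjusted p under 0.05 edgeR passed 38 members, and DESeq2 called 35 lower and 0 higher. The count depended on single libraries: it came to 1 without MDA-MB231 DMSO replicate 1, 6 without the MDA-MB231 etoposide library and 9 without the U2OS DMSO library, though the median stayed between -0.82 and -0.61 over all 11 libraries left out in turn. With total-count scaling 18 fell and 1, UTP3, rose. POLR1B, NOP14, NPM3, DDX47, BOP1, PES1 and WDR12 were then not called.

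RRS1 fell by 1.91 ± 0.27 log2 units (adjusted p = 0.00585) with etoposide, 3.75-fold. UTP20, a large scaffold protein of small subunit assembly, had 98.5 CPM with DMSO, 55.2 after doxorubicin, 33.5 after etoposide, 69.7 after MMS and 88.3 after paclitaxel in U2OS. In MDA-MB231, UTP20 had 128 and 261 CPM with DMSO (replicates 1 and 2), 84.5 after doxorubicin, 33.5 after etoposide, 273 after MMS and 98.9 after paclitaxel. The etoposide libraries were the lowest in both lines, and UTP20 fell by 1.66 ± 0.20 log2 units (adjusted p = 0.00436). The 2 MDA-MB231 DMSO libraries differed by more than 2-fold for UTP20, a wider gap than for any other member. DDX10 fell by 1.56 ± 0.18 log2 units (adjusted p = 0.00427), and its difference between the drugs was 0.00 ± 0.18. Of the other role groups, 8 of 11 large subunit assembly genes, 6 of 9 processome genes, 3 of 4 chaperones and scaffolds and 2 of 3 box C/D proteins fell. All 3 PeBoW genes were among them, BOP1 at -1.15, WDR12 at -0.63 and PES1 at -0.62, though these 3 were not called with total-count scaling. NOP16 (-1.40), BRIX1 (-0.92) and NOP2 (-0.79) fell as well. The processome genes RRP9 (-0.86), DDX47 (-0.70) and NOP14 (-0.64) fell too. So did NOP58 (-1.15), DKC1 (-1.16), GAR1 (-0.91), MYBBP1A (-1.18), LYAR (-1.13), NPM3 (-0.76) and NOLC1 (-0.61).

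Among the RNA polymerase I subunits, 1 of 5 fell with etoposide, POLR1B, which was not called with total-count scaling (-0.79 log2 units). Of the 5 initiation factors 0 were called by edgeR. Their log2 fold changes ran from -0.57 for TAF1A to 0.33 for TAF1C, and 1 of the 5 passed an unadjusted p under 0.05. POLR1A and POLR1E stood at -0.43 ± 0.15 and -0.65 ± 0.23 and were not called.

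Doxorubicin and etoposide, both topoisomerase II poisons, were tested directly against each other. Of the 46 members, 20 were higher with doxorubicin than with etoposide (43.5%, against 24.1% of all tested genes). The 9 that were lower (19.6%, against 22.3%) were near the share of all tested genes. All 3 box C/D proteins and all 4 chaperones and scaffolds were higher with doxorubicin. The largest difference among the members was that of EBNA1BP2 (1.58 ± 0.16, adjusted p = 0.000222), followed by NOP58 (1.48 ± 0.16, adjusted p = 0.000264). FBL (1.38 ± 0.15, adjusted p = 0.000246), NPM1 (1.37 ± 0.19, adjusted p = 0.000641) and NHP2 (1.32 ± 0.15, adjusted p = 0.00027) were also higher. Of the 9 lower members, 5 belong to RNA polymerase I or its factors: POLR1B, TAF1A (-1.29 ± 0.27, adjusted p = 0.00479), RRN3 (-0.92 ± 0.18, adjusted p = 0.00284), POLR1A and TAF1B. The split depended on scaling, since total counts moved the median of all tested genes by -0.35 and gave 11 members higher and 13 lower. Among those that stayed higher were EBNA1BP2, NOP58, FBL, NPM1 and NHP2. The box C/D gene NOP56 and the scaffold gene NOLC1 were then not called, at 0.22 and 0.31 log2 units. POLR1B, TAF1A, RRN3, POLR1A and TAF1B stayed lower, and NOP14, WDR43, DDX18 and RRS1 were then called lower as well.

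The members called higher with doxorubicin include 3 that fell with etoposide: FBL (-0.86 ± 0.14, adjusted p = 0.00898), NPM1 (-0.76 ± 0.18, adjusted p = 0.026) and EBNA1BP2 (-0.85 ± 0.16, adjusted p = 0.0116). The doses differed, at 1 µM and 20 µM, and both drugs were read against the same DMSO libraries.

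**Figure D2:**
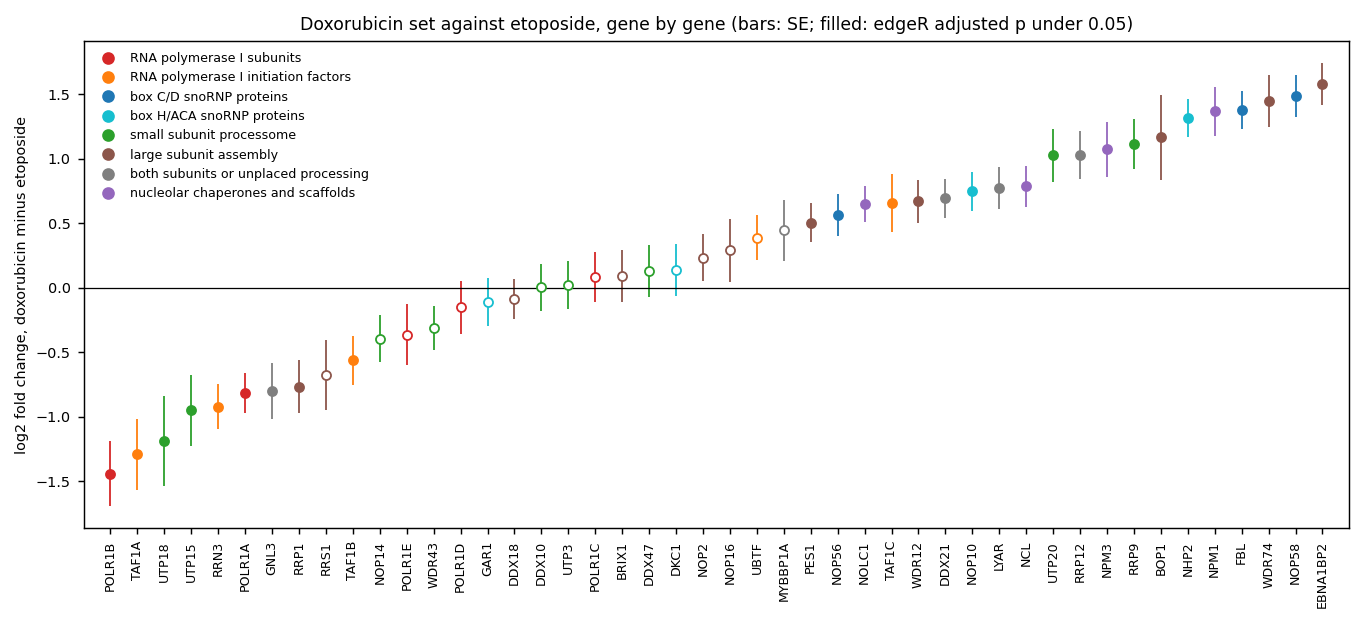
Difference between the fitted log2 fold changes of doxorubicin and etoposide (vertical axis) for the 46 genes, ordered by value and coloured by role. Bars are SE and filled points passed the test, 9 below 0 with POLR1B lowest at -1.44 and 20 above 0 with EBNA1BP2 highest at 1.58.

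With MMS, 3 of the members were called: RRN3, UBTF and DDX21. Of the 46 members, 2 rose (4.35%, against 5.23% of all tested genes), 1 fell (2.17%, against 5.16%) and 43 were not called. Neither share was above that of all tested genes. The median was 0.05 log2 units against -0.04 for all tested genes. RRN3 and UBTF, both of which act in RNA polymerase I initiation, were called in opposite directions. RRN3 had 50.9 CPM with DMSO, 34.6 after doxorubicin, 58 after etoposide, 106 after MMS and 54.6 after paclitaxel in U2OS. In MDA-MB231, RRN3 had 44.4 and 51.5 CPM with DMSO (replicates 1 and 2), 25.6 after doxorubicin, 54.6 after etoposide, 84.6 after MMS and 43.4 after paclitaxel. The MMS library was the highest of its line in both, and RRN3 rose by 0.89 ± 0.16 log2 units (adjusted p = 0.0159), 1.85-fold. RRN3 has near-identical pseudogenes, of which RRN3P1 and RRN3P2 had at most 38 reads in a library and RRN3P3 between 27 and 105, so part of its reads may be missing or shared.

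UBTF had 228 CPM with DMSO, 251 after doxorubicin, 202 after etoposide, 115 after MMS and 231 after paclitaxel in U2OS. In MDA-MB231, UBTF had 148 and 173 CPM with DMSO (replicates 1 and 2), 161 after doxorubicin, 116 after etoposide, 134 after MMS and 144 after paclitaxel. It fell by 0.73 ± 0.17 log2 units (adjusted p = 0.0325) with MMS, 1.65-fold, with the MMS library lowest in U2OS, while in MDA-MB231 the etoposide library was lower still. DDX21, a helicase that acts in RNA polymerase I transcription and rRNA processing, had 554 CPM with DMSO, 414 after doxorubicin, 275 after etoposide, 1008 after MMS and 601 after paclitaxel in U2OS. In MDA-MB231, DDX21 had 643 and 831 CPM with DMSO (replicates 1 and 2), 411 after doxorubicin, 235 after etoposide, 1183 after MMS and 519 after paclitaxel. The order etoposide, doxorubicin, DMSO, MMS held in both lines, and DDX21 rose by 0.63 ± 0.14 log2 units (adjusted p = 0.0297) with MMS and fell by 0.57 ± 0.15 log2 units (adjusted p = 0.0139) with doxorubicin and 1.26 ± 0.15 log2 units (adjusted p = 0.00436) with etoposide. It was the one member called for 3 drugs.

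These MMS calls rest on few libraries. None were called without MDA-MB231 DMSO replicate 1, without the U2OS DMSO library or without the U2OS MMS library, 1 was called without either paclitaxel library, and 6 and 7 without the MDA-MB231 and the U2OS doxorubicin library. DESeq2 called 7 higher and 2 lower, and 11 members passed an unadjusted p under 0.05 in edgeR. TAF1A (0.88 ± 0.24, adjusted p = 0.0531), WDR43 (0.53 ± 0.16) and RRS1 (-0.85 ± 0.26) were not called with MMS.

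**Figure D3:**
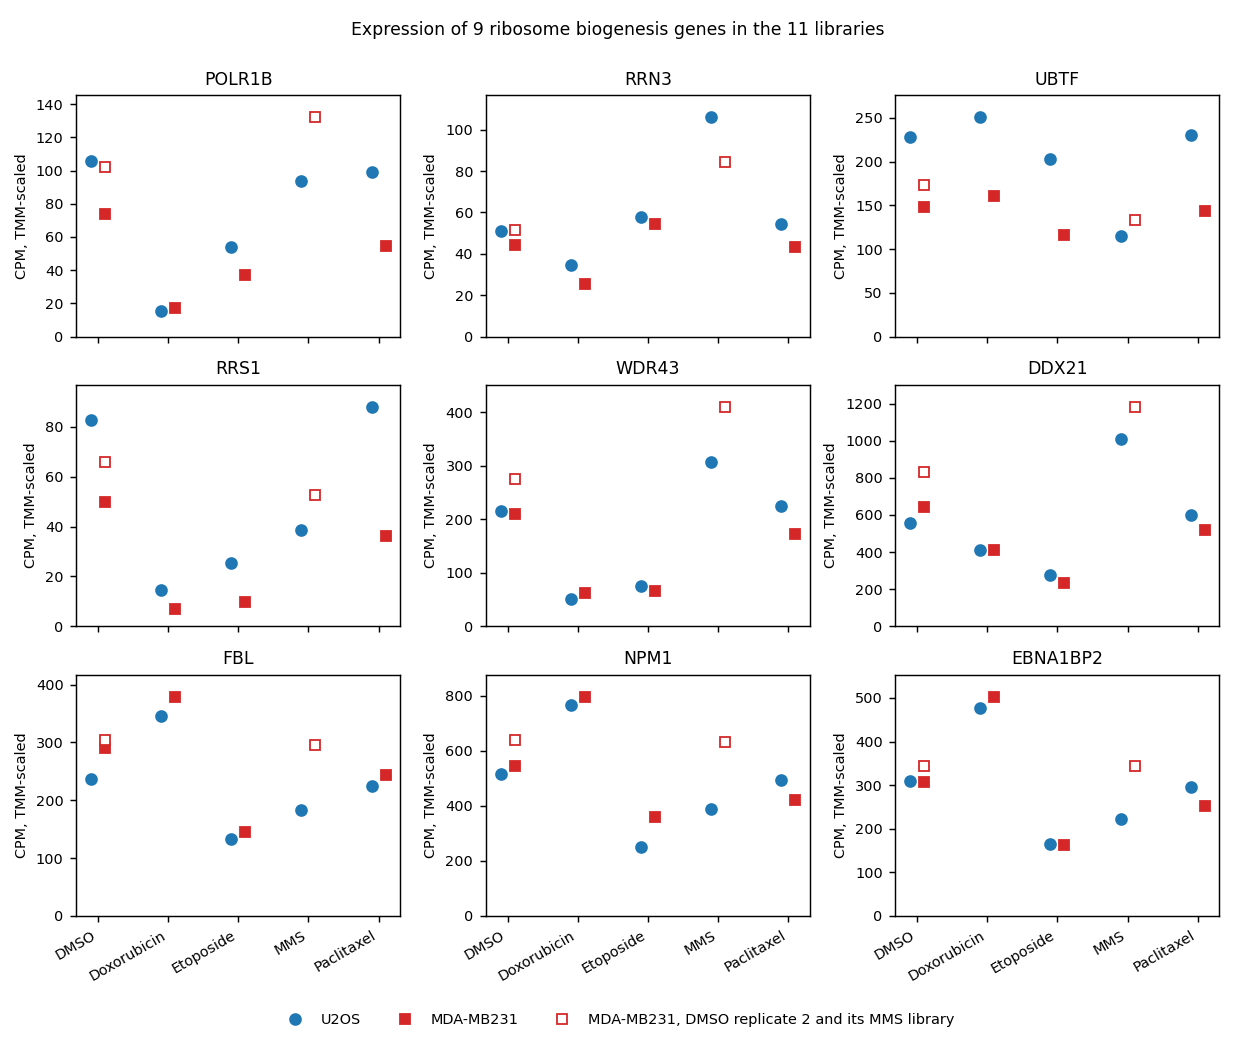
TMM-scaled CPM (vertical axes, each from 0) of 9 of the genes in the 11 libraries by treatment. Circles are U2OS and squares MDA-MB231, with open squares for DMSO replicate 2 and the MMS library paired with it; RRN3 and DDX21 are highest with MMS in both lines, and FBL, NPM1 and EBNA1BP2 are highest with doxorubicin and lowest with etoposide.

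MMS was also tested against each of the other drugs. Against doxorubicin 22 members were higher with MMS (20.4% of all tested genes) and 8 lower (22.3%), and TAF1A (2.74 ± 0.31, adjusted p = 0.000358), POLR1B (2.45 ± 0.29, adjusted p = 0.000445) and WDR43 (2.43 ± 0.20, adjusted p = 0.000142) led the higher ones. At the other end stood NHP2 (-1.01 ± 0.17, adjusted p = 0.0017) and EBNA1BP2 (-1.01 ± 0.19, adjusted p = 0.00287). Without the U2OS MMS library 13 were higher and 0 lower. Against etoposide 16 were higher with MMS (4.73% of all tested genes) and 0 lower (4.33%), led by WDR43 (2.11 ± 0.19, adjusted p = 0.00311) and DDX21 (1.89 ± 0.17, adjusted p = 0.00311). At an unadjusted p under 0.05 edgeR passed 32 members in that contrast, DESeq2 called 26 higher and 0 lower, and 0 were called without the U2OS MMS library and 7 without the MDA-MB231 etoposide library. Against paclitaxel, MMS had 2 members higher (3.41%), DDX21 and RRN3, and 1 lower (3.85%), UBTF; this contrast called 0 without MDA-MB231 DMSO replicate 1, without either paclitaxel library in MDA-MB231 or U2OS, or without the U2OS MMS library, 1 without the U2OS DMSO library, and 6 or 7 without a doxorubicin library.

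Paclitaxel called none of the 46 members higher (0% of all tested genes) or lower (0%) by edgeR. At an unadjusted p under 0.05, 0 members passed, and DESeq2 and limma-voom also called 0. Fitted log2 fold changes ran from -0.25 to 0.07, with a median of -0.08.

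The lines were also read one by one, as ratios without replicates, counting members at 2-fold or more with the larger CPM at least 5. With doxorubicin, 14 members were 2-fold lower in U2OS (18.3% of all genes at that level) and 1, TAF1C, higher (14.3%), and 13 were lower in MDA-MB231 (18.8%) and 0 higher (8.19%). In both lines 11 members were 2-fold lower (23.9%, against 12.4% of the 10525 genes compared in both): DDX10, GNL3, NOP16, POLR1A, POLR1B, RRP1, RRS1, TAF1A, TAF1B, UTP18 and WDR43. With etoposide, 8 members were 2-fold lower in U2OS (7.5%) and 0 higher (6.11%), and 17 were lower in MDA-MB231 (11.1%) and 0 higher (8.62%). In both lines 7 were 2-fold lower (15.2%, against 4.13% of 10418 genes): BOP1, DDX10, DDX21, NOP16, RRS1, UTP20 and WDR43. At any size, 42 members lay below DMSO in both lines with etoposide (91.3%, against 41.2% of all genes) and 26 with doxorubicin (56.5%, against 44.4%). Medians for etoposide were -0.63 in U2OS and -0.85 in MDA-MB231.

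With MMS, 2 members were 2-fold higher in U2OS (7.32%), TAF1A at 1.23 and RRN3 at 1.05, and 2 were lower (11.2%), BOP1 at -1.35 and RRS1 at -1.09. In MDA-MB231 0 were 2-fold higher (2.71%) and 0 lower (3.4%). In all, 15 members lay below DMSO in U2OS and above it in MDA-MB231, and 1 the other way. Medians were -0.04 in U2OS and 0.17 in MDA-MB231.

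With paclitaxel the 2 lines had medians on opposite sides of DMSO. In U2OS 28 members lay above and 18 below, with a median of 0.04, and 0 were 2-fold higher (0.0799%) or lower (0.00888%). In MDA-MB231 all 46 lay below, with a median of -0.26, while the median of all 10832 genes compared was -0.01. Again 0 were 2-fold higher (0.462%) or lower (0.00923%). Counting intervals (exact binomial, 95%) lay wholly below 0 for 42 of the 46. The 2 MDA-MB231 DMSO libraries also differed: replicate 2 stood above replicate 1 in 38 of 46 members, with a median of 0.21, and 1 member, UTP20, was 2-fold higher (0.822%) and 0 lower (0.96%). With 1 library on each side none of these shifts has a test.

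**Figure D4:**
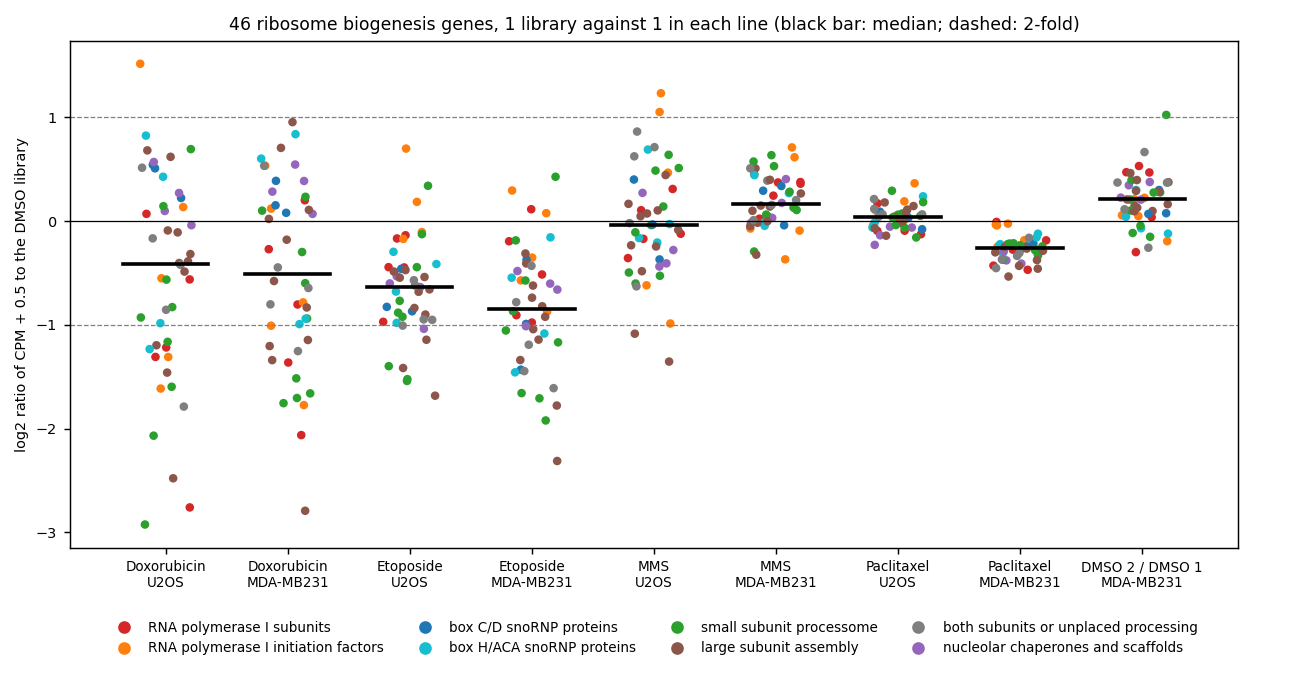
Log2 ratio of CPM + 0.5 to the DMSO library (vertical axis) for the 46 genes in each line and drug, and for the 2 MDA-MB231 DMSO libraries. Dots are genes coloured by role, black bars are medians and dashed lines mark 2-fold; in MDA-MB231 with paclitaxel all 46 dots lie below 0 and in the DMSO comparison 38 lie above.

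A term for the difference between the lines in mean response over the 4 drugs called 0 members (0% of all tested genes higher, 0% lower) in edgeR and 0 in DESeq2. In edgeR 1 member, TAF1C (0.66 log2 units higher in treated U2OS), passed an unadjusted p under 0.05. Its doxorubicin ratio was 1.52 in U2OS and 0.53 in MDA-MB231. The line term cannot test a difference that holds for 1 drug.

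Genes of the same pathway outside the 46 were read for comparison. In 5 lists of further RNA polymerase I, processome, large subunit, snoRNP assembly and exosome genes, 129 genes were tested. Doxorubicin lowered 63 (against 20.6% of all tested genes) and raised 17 (against 21.9%, a larger share). Etoposide lowered 36 (9.23%) and raised 2 (7.97%). MMS lowered 1 (5.16%) and raised 7 (5.23%), the rises being near the share of all tested genes. Paclitaxel changed 0 in edgeR (0 at an unadjusted p under 0.05, and 0 with DESeq2 and limma-voom). Their medians were -0.48, -0.28, 0.12 and -0.09. With total-count scaling doxorubicin lowered 75 and raised 8, and etoposide lowered 20 and raised 4. Of the 11 further RNA polymerase I genes among them, 4 rose with doxorubicin, 2 fell and 5 were not called, with a median of 0.36. Those that rose, POLR2F (1.35 ± 0.15, adjusted p = 0.000445), POLR2L (1.22), POLR2K (1.17) and POLR2E (0.82), encode subunits that all 3 nuclear RNA polymerases use, and TWISTNB (-0.79), a polymerase I subunit gene, and TAF1D (-0.71) fell. RRP1B, a nucleolar partner of RRP1, had the lowest doxorubicin value of these lists (-2.87 ± 0.17, adjusted p = 0.000117), and MPHOSPH10 the lowest of the processome list (-2.31 ± 0.21, adjusted p = 0.000196). With etoposide the processome gene CIRH1A (-1.35 ± 0.20, adjusted p = 0.00652) and CD3EAP, a further RNA polymerase I subunit gene (-1.23 ± 0.25, adjusted p = 0.0162), fell. With MMS the ribosome assembly gene RSL24D1 (1.34 ± 0.17, adjusted p = 0.00568) and TAF1D, another SL1 subunit gene (0.80 ± 0.16, adjusted p = 0.0214), rose.

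RNA polymerase III, which makes 5S rRNA and transfer RNA, had 12 of 21 genes lower (20.6% of all tested genes) and 2 higher (21.9%) with doxorubicin. With etoposide 1 was lower (9.23%) and 2 higher (7.97%), and with MMS 0 were lower (5.16%) and 4 higher (5.23%). With total-count scaling 0 were higher with doxorubicin. BRF2, an initiation factor for a subset of its genes, fell by 2.98 ± 0.28 log2 units (adjusted p = 0.000229) with doxorubicin and rose with etoposide (1.09 ± 0.24, adjusted p = 0.0205) and MMS (1.07 ± 0.25, adjusted p = 0.0302). Cytosolic ribosomal protein genes, the products that ribosome assembly consumes, went the other way from the member median with doxorubicin. Of 77 genes, 70 rose (21.9% of all tested genes) and 1 fell (20.6%), with a median of 0.85. With etoposide 0 rose (7.97%) and 11 fell (9.23%). With total-count scaling 60 rose and 1 fell with doxorubicin, and 0 rose and 2 fell with etoposide. A rise here is relative to the other counted genes of a library. Reads aligned to several places, which are not counted, made up 37.5% and 34.4% of reads with doxorubicin, against 32.7% and 30% with DMSO. Their part in the ribosomal protein values was not tested.

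MYC, whose protein activates many ribosome biogenesis genes, had 185 CPM with DMSO, 81.4 after doxorubicin, 58.4 after etoposide, 104 after MMS and 173 after paclitaxel in U2OS. In MDA-MB231, MYC had 256 and 249 CPM with DMSO (replicates 1 and 2), 131 after doxorubicin, 103 after etoposide, 382 after MMS and 166 after paclitaxel. The doxorubicin and etoposide libraries were the 2 lowest in each line, and MYC fell by 0.90 ± 0.31 log2 units (adjusted p = 0.0433) with doxorubicin and 1.31 ± 0.31 log2 units (adjusted p = 0.0255) with etoposide. DESeq2 called both, and limma-voom called etoposide but not doxorubicin. With MMS it was lower than DMSO in U2OS and higher in MDA-MB231, and was not called (-0.16 log2 units). Of the 11 tested genes of the MYC network list, 3 rose (21.9% of all tested genes) and 4 fell (20.6%) with doxorubicin. Their log2 fold changes ran from -2.60 to 4.48. With etoposide 2 rose (7.97%) and 1 fell (9.23%), and with MMS 1 rose (5.23%) and 0 fell (5.16%). Any link between MYC and the members was not tested.

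Features that the members share were compared with their responses. Of the 46 members, 6 host snoRNA genes in their introns (NOP56, NOP58, DKC1, NCL, WDR43 and GNL3), and the 18 of those 22 snoRNAs with a row in the tables summed to between 47 and 232 reads per library, too few to read a response. Members above the median genomic span of 17.9 kb had a median of -0.57 with doxorubicin and those below it -0.48, and with etoposide the medians were -0.64 and -0.68. Across all tested genes with a span, the longer ones stood at -0.07 and the shorter at 0.25 with doxorubicin.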

How the data were processed

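RNA-seq of total RNA from 11 libraries of 2 cell lines was used. The deposited values are whole-number read counts per gene symbol, which the authors made with CASAVA 1.8.2, TopHat2 2.0.8b and HTSeq, per the submitters' processing notes. These notes name builds hg19 and mm9 without a role. For strand setting and RNA selection, the sources used here give nothing. The 5 summary rows of each table were left out, and reads aligned to several places (28.4% to 37.5%) were not counted for genes, so genes with near-identical copies may be undercounted.

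Counts were tested in R 4.3.3 with edgeR 4.0.16 (TMM scaling, filterByExpr, robust quasi-likelihood test). One model over all 11 libraries held a 3-level block for line and title form and a term for each of the 4 drugs, which left 4 residual degrees of freedom. The SE was taken as |log2 fold change| over the root of the F statistic. A separate fit added a line term. Ratios within a line used CPM + 0.5. DESeq2 1.42.0, limma-voom 3.58.1, other scalings, filters and blocks, and fits without each library were alternatives. On simulated counts of 15639 genes, edgeR recovered 36 of 100 genes changed 2-fold and 73 of 100 changed 4-fold for doxorubicin (13 false calls), 35 and 77 for etoposide (8), 37 and 75 for MMS (11) and 24 and 76 for paclitaxel (9). In that simulation few genes changed for each drug, both lines had the same response, and all other genes were held unchanged. In the data far more genes were called with doxorubicin, so these rates are not the power of the tests reported here. Intervals cover counting error only. Genes named by rule were the 10 RNA polymerase I members, FBL, NCL, NPM1, DKC1 and MYC. For each drug they included the 4 highest and 4 lowest called members whose sign agreed between lines. The 2 highest and 2 lowest per contrast of drugs were added. The rule also picked the extreme called genes of each further list, of which only some are named. Others named are examples of their role group or complex, chosen after their values were seen. Promoters came from RefSeq tables on GRCh38.p14. The members and lists were chosen with earlier results of these data known.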

Additional observations from a re-analysis of the deposited data

Results flagged for a closer look

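With MMS the members' median log2 ratio to DMSO was -0.0362 in U2OS and 0.165 in MDA-MB231, and with paclitaxel it was 0.038 in U2OS and -0.264 in MDA-MB231. In both cases the medians of the 2 lines lay on opposite sides of 0. The difference between the lines was not tested for a single drug.

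Reads aligned to several places, which no gene value uses, made up 37.5% of reads in the U2OS doxorubicin library against 32.7% in its DMSO library, and 34.4% against 30% in MDA-MB231. They were not analysed as genes.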

How the results depend on the processing

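Of 1992 alternative values for 96 pairs of a named member and a drug, 1844 kept their side of the threshold, 89 lost the call and 59 gained it. The 33 pairs called kept their sign in all 674 of their values, while 35 of the 63 pairs not called changed sign in at least 1 alternative. The median doxorubicin value moved from -0.52 to -0.74 with total-count scaling, -0.60 without a low-count filter, -0.44 with a filter of 5 CPM, -0.64 with a block for line alone and -0.61 with no block. With no block, 11 members were called for doxorubicin, 0 for etoposide (median -0.83) and 0 for MMS. For MMS, DESeq2 called 9, limma-voom 6, a fit of MMS and DMSO libraries alone 1, and a fit without both doxorubicin libraries, chosen after seeing the data, 6. MMS against etoposide had 26 with DESeq2, and MMS against paclitaxel 8 with DESeq2, 5 with limma-voom and 7 without both doxorubicin libraries. Within lines, 2-fold counts became 5 for etoposide in U2OS with total counts, and 2 for MMS and 2 for paclitaxel in MDA-MB231 against the other DMSO library. The cause was not tested.

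With each library left out in turn, calls ran from 18 to 31 for doxorubicin (medians -0.57 to -0.35), 1 to 31 for etoposide (-0.82 to -0.61), 0 to 7 for MMS (-0.10 to 0.17), 13 to 30 for MMS against doxorubicin, 0 to 23 for MMS against etoposide and 0 to 7 for MMS against paclitaxel. The line term could not be fitted without the U2OS DMSO library. The block of the model already matches each drug library to the DMSO library of its line and title form. Beyond that block, no paired analysis was possible because the replicate numbers pair nothing: replicate 2 exists for MDA-MB231 DMSO alone. Depth leaves every member countable (the smallest value was 64 reads), and 2 libraries per drug with 4 residual degrees of freedom limit what the tests can call.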
